A study of Mus musculus with 4 samples.

Results

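Immediate early transcription factors were examined in Nanopore long-read RNA sequencing of mouse neural stem cells. The group was defined by name and held 9 genes: Fos, Jun, Junb, Jund, Egr1, Ier2, Klf4, Klf6 and Myc. An entry of the isoform table was taken as a member when the Ensembl gene it named carries one of these symbols in GENCODE M21. By that rule 7 of the 9 genes had entries, with 15 isoform entries among the 46637 that name a gene and 7 genes among 14949. Jund and Klf4 had no entry that names them, and reads at their loci are described separately.

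The 4 libraries were 1 each of 4 groups, and a difference between them has no replicates behind it. The control was floxed Tut1f/f cells given empty lipid nanoparticles (LNP), without Cre mRNA. Tut1f/f cells given LNP with mRNA of the Cre recombinase, which removes floxed exons, form the Tut1 KO library. The same treatment of Trp53f/f cells gave the P53 KO library, and of Tut1f/f;Trp53f/f cells the double KO library. All 4 shared growth as primary neurosphere culture of embryonic neocortex in medium with bFGF and EGF, and the design text gives 3 days of treatment. The control carries the floxed Tut1 alleles but not the floxed Trp53 alleles, and Cre mRNA without a floxed gene is not among these libraries. Tut1 encodes the uridylyltransferase that extends the 3′ end of U6 snRNA, and Trp53 encodes p53. The study asked whether Tut1 regulates mRNA splicing.

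Immediate early genes are transcribed within minutes of a growth factor or stress signal, from promoters already occupied by factors such as SRF, without new protein synthesis. Their mRNAs and proteins are short-lived, and many encode transcription factors that set off the next wave of genes. Fos and the Jun proteins pair to form AP-1, and in neural stem cells the EGF and FGF of the medium feed the Ras and MAP kinase pathway that drives these genes.

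The libraries held 3936827 to 5125888 reads, of which 2863392 to 4244467 named a gene. Levels are reads per 1000000 TMM-scaled reads of the 9882 genes that passed an expression filter (CPM). The control stood apart from the others in composition: ribosomal RNA took 18.7% of its gene reads against 5.46% to 9.76%, and 17.2% of its reads named no gene against 27.3% to 30.2%. The control and the double KO library carried reads of the Y-linked genes Ddx3y, Kdm5d, Eif2s3y and Uty and 0 of Xist, while Tut1 KO and the library labelled P53 KO carried 44 and 49 of Xist and 0 of the Y-linked genes, so sex differed between cultures. Tut1 had 37 reads in the control, 11 in Tut1 KO, 14 in the library labelled P53 KO and 27 in the library labelled double KO. Tut1 totals thus went against the labels of the last pair of libraries, although the deletion removes exon 2 and need not lower the total. Trp53 had 175, 67, 10 and 19 reads in that order. Directions below that involve these libraries rest on their labels. Markers of neural stem cells summed to 11812 to 13159 CPM in the 4 libraries, with 8 of 9 detected (Notch1 at 0). Fabp7 carried most of that sum (39422 reads in the control and 30043 to 33582 in the others). Among the smaller ones, Vim had 5030 reads in the control and 1836 to 2296 in the others, and Hes1 had 594 and 1334 to 1586. Nes had 555 reads in the control and 926, 1007 and 588 in the others, and Sox2 had 843 and 1149, 1350 and 797. Sox9 had 147 and 262, 313 and 199, Pax6 35 and 60, 56 and 49, and Slc1a3 1149 and 984, 1010 and 909. Scaled for library size, Hes1, Nes, Sox2, Sox9, Pax6 and Slc1a3 were lowest in the control. All 7 markers of microglia and all 4 of endothelium were at 0. Of 6 markers of the oligodendrocyte lineage, all 6 had reads and their sum was 353 CPM in the control and 469 to 692 in the others. Neuron markers summed to 72.9 to 87.3 CPM with 5 of 6 detected (Rbfox3 at 0), and fibroblast markers to 1 read in all. Astrocyte markers, with 4 of 5 detected (Gfap at 0), summed to 105 CPM in the control and to 59.1, 50.3 and 80.0 in the others. Of these, Aldh1l1 had 187 reads in the control and 16, 11 and 71 in the others, and Gja1 had 224 and 141, 147 and 146. S100b (10 reads in the control and 16, 10 and 21 in the others) and Aqp4 (0 and 4, 3 and 1) were not highest in the control. For the sum, the control was the high library, as it was for Junb, Ier2 and Myc, but not for every marker. Whether these differences have a part in the values below was not tested.

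Fos, Jun and Junb are the 3 AP-1 subunits with entries, and the 250 bases before the RefSeq start of each (GRCm38.p6) are printed to set the promoters of partners in 1 complex side by side. They lie at chr12:85473640-85473889 on the plus strand for Fos, at chr4:95052223-95052472 on the minus strand for Jun and at chr8:84978749-84978998 on the minus strand for Junb. Each is written 5′ to 3′ in the direction of its gene. Capitals mark matches on either strand to the motifs searched: the CRE half-site (TGACG), the AP-1 site (TGANTCA), the E-box (CACGTG), the TATA box (TATAAA), the CCAAT box (CCAAT), the GC box (GGGCGG) and the CArG box of SRF.
Fos: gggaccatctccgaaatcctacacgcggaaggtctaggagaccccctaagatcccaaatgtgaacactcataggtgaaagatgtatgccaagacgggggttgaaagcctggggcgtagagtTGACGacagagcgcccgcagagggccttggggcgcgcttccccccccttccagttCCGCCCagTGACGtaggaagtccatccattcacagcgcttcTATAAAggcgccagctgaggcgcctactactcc
Jun: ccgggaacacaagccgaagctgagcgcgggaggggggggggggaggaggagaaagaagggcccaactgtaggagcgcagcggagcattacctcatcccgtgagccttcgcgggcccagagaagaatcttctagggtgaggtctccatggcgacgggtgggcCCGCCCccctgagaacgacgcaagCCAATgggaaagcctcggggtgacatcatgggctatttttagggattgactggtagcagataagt
Junb: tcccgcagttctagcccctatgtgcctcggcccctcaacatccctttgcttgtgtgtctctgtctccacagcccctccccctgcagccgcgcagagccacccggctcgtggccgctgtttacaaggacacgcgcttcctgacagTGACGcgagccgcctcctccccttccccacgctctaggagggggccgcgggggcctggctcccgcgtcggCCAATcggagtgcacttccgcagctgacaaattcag

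The Fos window held 2 CRE half-sites, 1 GC box and 1 TATA box, the last 33 to 28 bases before the start. The Jun window held 1 CCAAT box and 1 GC box, and the Junb window 1 CRE half-site and 1 CCAAT box. None of the 3 windows held the letters of a CArG box, an AP-1 site or an E-box. Bases farther upstream and variant forms of these motifs were not searched, so the windows cannot show that a gene lacks such a site. Among 32851 windows of this length in the RefSeq table, 17.8% held a CRE half-site, 6.75% an AP-1 site, 6.02% an E-box, 12.4% a TATA box, 33.8% a CCAAT box, 32.7% a GC box and 1.47% a CArG box. The table matched 6 of the 9 genes, not Ier2, Myc or Egr1. Klf6 and Klf4 each held 6 matches, 4 of them to the CCAAT box in Klf6 and 4 to the GC box in Klf4.

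Jun, Egr1, Myc, Klf6 and Ier2 were the abundant members and Junb and Fos the scarce ones. Per kilobase of annotated transcript, Jun was highest in all 4 libraries, at 72.6 CPM per kb in the control, 67.8 in Tut1 KO, 74.1 in the library labelled P53 KO and 44.1 in the library labelled double KO. In the control the order was then Myc (66.7), Ier2 (45.5), Egr1 (37.2), Klf6 (26.3), Junb (9.82) and Fos (2.96). There the 95% counting intervals of Jun and Myc overlapped, those of the other neighbours did not, and of Ier2 and Egr1 they came as close as 40.3 and 40.2. In Tut1 KO and the library labelled P53 KO, Egr1 (50.6 and 48.3 CPM per kb) stood above Myc (36.1 and 47.0), and Ier2 ranked between Klf6 and Junb in every library with Cre mRNA. Counting intervals overlapped there for Myc and Klf6 in Tut1 KO, and for Egr1 and Myc as well as Klf6 and Ier2 in the library labelled P53 KO. In the library labelled double KO, the order began with Jun, Myc and Egr1, with overlapping intervals between Jun and Myc and between Myc and Egr1. Junb and Fos were lowest throughout, and their intervals overlapped in Tut1 KO and in the library labelled double KO. This order rests on the division by length. In CPM alone the order in the control was Jun (231), Egr1 (167), Myc (149), Klf6 (111) and Ier2 (69.3), then Junb and Fos. Egr1 then stood above Jun in Tut1 KO (227 against 216 CPM) and in the library labelled double KO (160 against 141), with overlapping intervals. The 7 genes together took 0.0707%, 0.0707%, 0.0732% and 0.0543% of gene reads. The cDNA was amplified by PCR and carried no molecular identifiers, so all intervals cover counting error only.

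**Figure D1:**
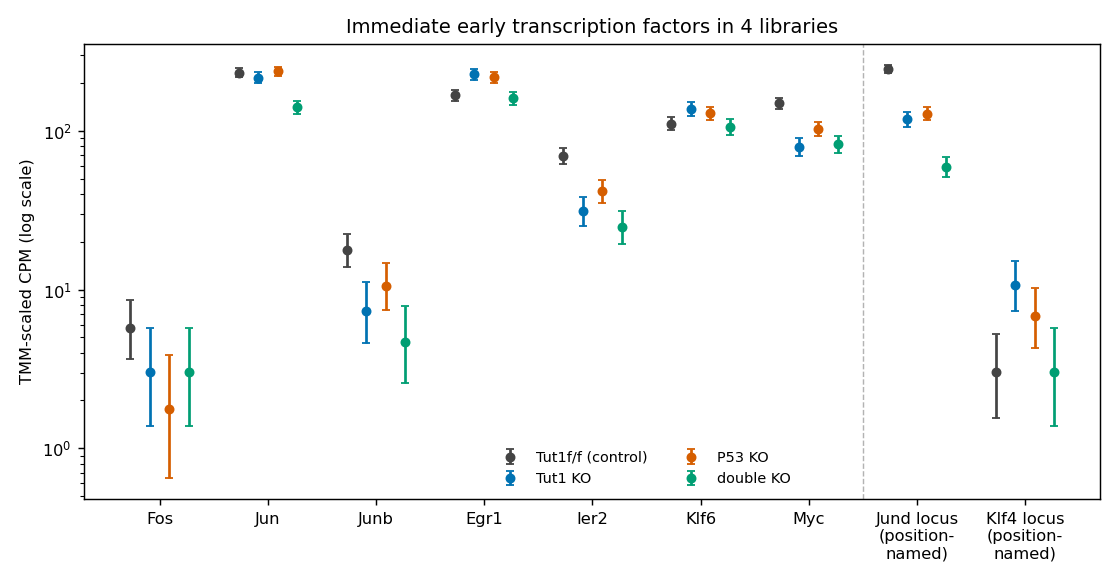
TMM-scaled CPM on a log axis of each member in the 4 libraries, 1 point per library with its exact 95% Poisson interval. The right side shows entries named only by a position at the Jund and Klf4 loci. Ier2 lies at 69.3 CPM in the control and at 24.8 to 41.5 CPM in the libraries with Cre mRNA.

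Each pair of libraries was compared by the ratio of CPM with an exact 95% interval, and a gene was counted as different at a ratio of at least 2-fold with an interval that excludes no change. The 3 comparisons with the control share that library. Fewer cells of a type and less RNA per cell cannot be told apart in these bulk samples. Against the control, Junb and Ier2 were lower in Tut1 KO (2 of 7 members, against 12.8% of 9882 genes tested). In the library labelled P53 KO only Fos was lower (1 of 7, against 14.3%), and in the library labelled double KO Junb and Ier2 were lower (2 of 7, against 9.94%). No member was higher in any of the 3, where 13.1%, 13.2% and 10.1% of genes were. The median log2 ratio of the 7 members was -0.91, -0.53 and -0.85, beside 0.02, 0.02 and -0.02 over all genes. All 7 members passed the expression filter, Fos in 2 libraries (the control and the library labelled double KO) and the others in all 4.

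Among the AP-1 subunits, Junb, a Jun protein with weaker activating ability than Jun, had 71 reads in the control, 22 in Tut1 KO, 36 in the library labelled P53 KO and 14 in the library labelled double KO. The control was the highest library and the intervals of Tut1 KO and the library labelled double KO did not reach it. The levels were 17.8 CPM (95% interval 13.9 to 22.4), 7.35 (4.60 to 11.1), 10.6 (7.41 to 14.7) and 4.69 (2.56 to 7.87). Log2 ratios to the control were -1.27 (-2.04 to -0.57), -0.75 (-1.37 to -0.15) and -1.92 (-2.86 to -1.08). The Junb locus (GRCm38 chr8, 84974484 to 84978718, minus strand) overlaps Prdx2 on the other strand at its 3′ side, but the only entry is the single-exon transcript Junb-201, which ends before Prdx2.

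Jun, the main activating partner in AP-1, was close to the control in Tut1 KO and the library labelled P53 KO. It had 925, 648, 804 and 420 reads, or 231 CPM (217 to 247), 216 (200 to 234), 236 (220 to 253) and 141 (128 to 155). The first 3 libraries overlapped and the library labelled double KO lay below them. Log2 ratios to the control were -0.10 (-0.24 to 0.05), 0.03 (-0.11 to 0.17) and -0.72 (-0.89 to -0.55), the last under 2-fold. Jun (chr4, 95049034 to 95052222, minus strand) is overlapped by the antisense gene Junos, which had 1 to 8 reads per library. Jun reads per Junb read were 13.0 in the control and 29.5, 22.3 and 30.0 in the others.

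Fos, the partner that Jun proteins need for the most stable AP-1 dimer, was near the detection limit with 23, 9, 6 and 9 reads. Its levels were 5.76 CPM (3.65 to 8.64), 3.00 (1.37 to 5.70), 1.76 (0.647 to 3.84) and 3.01 (1.38 to 5.72). All intervals overlapped at some point, and the control was the highest. Its log2 ratios to the control were -0.94 (-2.23 to 0.23), -1.71 (-3.29 to -0.37) and -0.93 (-2.23 to 0.23). At this depth a 2-fold difference of Fos could not be told from none in 2 of the 3 comparisons. Of its 47 reads, 41 were assigned to the full transcript Fos-201 (chr12, 85473890 to 85477273, 4 exons).

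Ier2, a short nuclear protein of the immediate early response, had the most reads among the members counted as lower. It had 277, 93, 141 and 74 reads, or 69.3 CPM (61.4 to 78.0), 31.1 (25.1 to 38.0), 41.5 (34.9 to 48.9) and 24.8 (19.5 to 31.1). The control lay above the other 3 with no overlap of intervals. Log2 ratios were -1.16 (-1.51 to -0.81), -0.74 (-1.04 to -0.44) and -1.48 (-1.87 to -1.11), or 2.23-fold, 1.67-fold and 2.80-fold lower. Ier2 (chr8, 84661331 to 84662852, minus strand) is a single-exon gene and lies 311.6 kb from Junb. By point values the 4 libraries had the same order for both genes: control, P53 KO by its label, Tut1 KO, and double KO by its label. The intervals of neighbours in that order overlapped, except those of Ier2 in the control and the library labelled P53 KO.

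Egr1 and Klf6 did not share that order. Egr1, a zinc finger factor induced through SRF, had 667, 679, 737 and 477 reads, or 167 CPM (154 to 180), 227 (210 to 244), 217 and 160 (146 to 175), the interval of the 217 CPM overlapping that of Tut1 KO. Tut1 KO and the library labelled P53 KO were the high ones, and the control and the library labelled double KO overlapped. Log2 ratios to the control were 0.44 (0.29 to 0.60), 0.38 (0.22 to 0.53) and -0.06 (-0.24 to 0.11), all under 2-fold. Klf6, a zinc finger factor of the Krüppel-like family, had 443, 410, 439 and 315 reads, or 111 CPM (101 to 122), 137 (124 to 151), 129 (117 to 142) and 105 (94.2 to 118). Again the control and the library labelled double KO were the low ones. Its log2 ratios were 0.30 (0.11 to 0.50), 0.22 (0.03 to 0.41) and -0.07 (-0.28 to 0.14). The low libraries are also those with reads of Y-linked genes, whose part in these values was not tested. Egr1 (chr18, 34859823 to 34864984, plus strand) had 1 entry, a suffixed variant of its 2-exon coding transcript, and Klf6 (chr13, 5861482 to 5870394, plus strand) gave 95.9% to 97.7% of its reads to the plain entry of its 4-exon coding transcript. A Klf6 entry based on an annotated nonsense-mediated decay transcript, Klf6-203, had 1 to 3 reads per library.

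Myc, the E-box factor that drives growth and ribosome production, had a lower total in all 3 libraries with Cre mRNA, by less than 2-fold, and the direction in the library labelled P53 KO rested on which isoform entries were counted. It had 594, 237, 350 and 246 reads, or 149 CPM (137 to 161), 79.1 (69.4 to 89.9), 103 (92.4 to 114) and 82.4 (72.4 to 93.3). The control was above the others with no overlap of intervals. Log2 ratios were -0.91 (-1.13 to -0.69), -0.53 (-0.73 to -0.34) and -0.85 (-1.07 to -0.63). With plain Ensembl transcripts only, which leaves out the entry called the Myc-201 variant below, the Myc ratios were -0.41, 0.05 and -0.67. With all reads of the library as the size, the ratio in Tut1 KO was -1.06, past 2-fold.

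**Figure D2:**
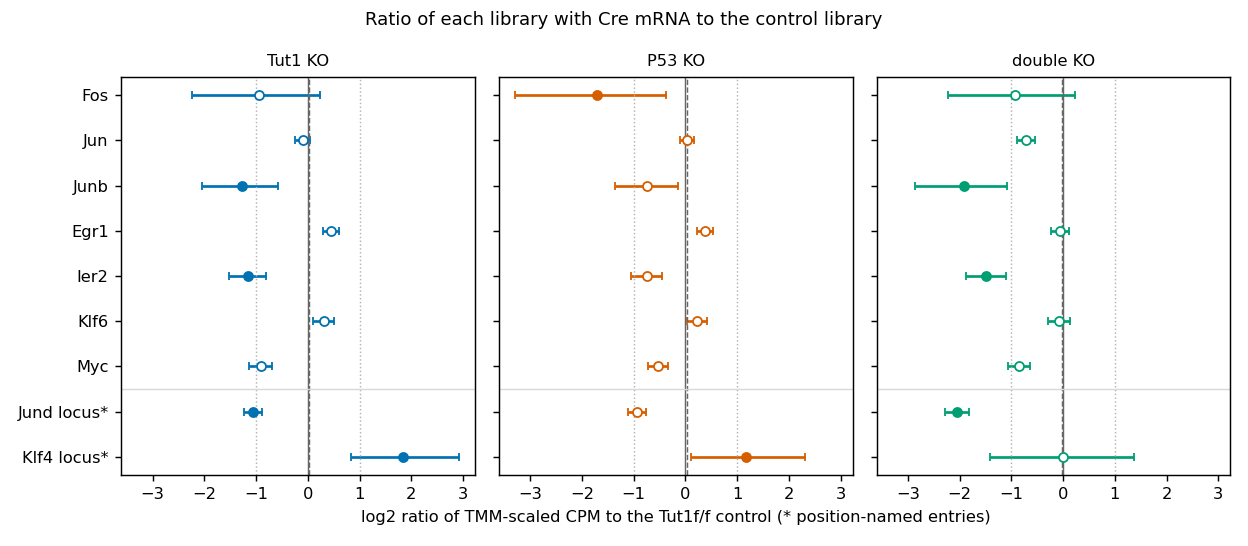
Log2 ratios of CPM to the control for each member in the 3 libraries with Cre mRNA, with exact 95% intervals that cover counting error. Filled points are at least 2-fold with an interval that excludes no change, dotted lines mark 2-fold and the dashed line the median of all genes. Junb and Ier2 lie left of zero in all 3 panels, while Egr1 and Klf6 lie right of it in the first 2.

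Between libraries with Cre mRNA fewer members differed. In the library labelled double KO against the library labelled P53 KO, Junb was lower (1 of 7, against 3.01% of genes), with a log2 ratio of -1.17 (-2.18 to -0.25), and no member was higher (4.07% of genes). Of the 7, 6 had an interval wholly below no change, against 16.2% of all genes, the exception being Fos. With all reads of the library as the size it was 4 of 7, without Myc and Klf6. The share of all genes was not computed for that scaling. It moved the median log2 ratio of all genes in this pair from -0.02 to 0.09. With TMM the log2 ratios were -0.75 (-0.92 to -0.58) for Jun, -0.74 (-1.17 to -0.33) for Ier2, -0.44 (-0.61 to -0.27) for Egr1, -0.32 (-0.56 to -0.08) for Myc and -0.29 (-0.50 to -0.08) for Klf6. Set against Tut1 KO, the library labelled double KO had 0 of 7 members lower (2.52% of genes) and 0 higher (2.06%). Jun (-0.62, -0.80 to -0.44), Egr1 (-0.51, -0.68 to -0.33) and Klf6 (-0.38, -0.59 to -0.16) were below no change by less than 2-fold there. Tut1 KO and the library labelled P53 KO differed in 0 of 7 members (1.24% of genes lower and 2.14% higher in Tut1 KO), with log2 ratios of -0.38 (-0.62 to -0.14) for Myc and -0.42 (-0.81 to -0.03) for Ier2.

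P-values for gene levels came only from model fits, the main one being over all 4 libraries. In edgeR, with the control against the 3 libraries with Cre mRNA and 2 residual degrees of freedom, 2 of 7 members fell by at least 2-fold at an FDR under 0.05, against 8.55% of 9882 genes lower (8.41% higher, 0 of 7 members). Ier2 fell by 1.09 on the log2 scale (SE 0.287, edgeR FDR 0.0181) and Junb by 1.22 (SE 0.402, edgeR FDR 0.0470). Myc had a log2 change of -0.75 (SE 0.233, edgeR FDR 0.0370), under 2-fold. Fos (-1.15, SE 0.523, edgeR FDR 0.134), Jun (-0.23, FDR 0.578), Egr1 (0.27, FDR 0.461) and Klf6 (0.16, FDR 0.670) did not pass. The control is 1 library and the spread among the others holds their genotypes. Without the library labelled P53 KO, edgeR called 0 of 9882 genes and no member, with 2693 genes at an unadjusted p under 0.05. Without Tut1 KO it called Ier2 alone, and without the library labelled double KO it called no member, since Junb and Ier2 were then under 2-fold. DESeq2 called Ier2 (adjusted p 0.0369) and not Junb (0.190).

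The additive edgeR fit of Tut1 and Trp53 status, with 1 residual degree of freedom, called 0 of 7 members for either gene. It called 0 of 9882 genes for Tut1 (0%, with 171 at an unadjusted p under 0.05) and 1 gene for Trp53 (0.0101%, 147 at an unadjusted p under 0.05). DESeq2 also called 0 genes for Tut1, with 70 at an unadjusted p under 0.05, and 1 for Trp53. For Tut1 status the log2 changes of Junb and Ier2 were -1.22 (SE 0.698) and -0.95 (SE 0.541), both at an edgeR FDR of 1.

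Isoform usage could be tested in Myc and Klf6 alone, and isoforms of Myc were called. Jun, Junb, Egr1 and Ier2 had 1 entry each, and Fos had too few reads. The Myc locus (chr15, 61985391 to 61990374, plus strand) has several annotated starts. Myc-201 begins at 61985391 and Myc-202 at 61985564, 173 bases further on, both with 3 exons and a first exon that ends at 61985951. Their coding sequences differ at the 5′ end, with 1362 and 1317 coding bases, because Myc-201 opens upstream in exon 1. Another annotated transcript, Myc-205, has the same start, end, exon number and length as Myc-201 but 1317 coding bases. A read assigned to Myc-201 therefore does not by itself give the coding sequence. The table held Myc-202 itself and a variant of Myc-201 marked with a suffix that is not explained in the sources used here. In 27, 4, 4 and 9 reads the isoform was named by a read, and the 2-exon Myc-204 had 19, 9, 11 and 5 reads.

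The Myc-201 variant had 221 reads in the control, 38 in Tut1 KO, 41 in the library labelled P53 KO and 74 in the library labelled double KO. These were 55.3 CPM (48.3 to 63.1), 12.7 (8.98 to 17.4), 12.1 (8.65 to 16.4) and 24.8 (19.5 to 31.1). The control was highest, Tut1 KO and the library labelled P53 KO overlapped as the lowest, and the library labelled double KO lay between. Log2 ratios to the control were -2.12 (-2.66 to -1.62), -2.20 (-2.72 to -1.71) and -1.16 (-1.56 to -0.77). Myc-202 had 323, 183, 292 and 154 reads, or 80.8 CPM (72.3 to 90.1), 61.1 (52.6 to 70.6), 85.9 (76.3 to 96.3) and 51.6 (43.7 to 60.4). Its log2 ratios were -0.40 (-0.67 to -0.14), 0.09 (-0.15 to 0.32) and -0.65 (-0.93 to -0.37).

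As a share of Myc reads, Myc-202 made up 54.4% of 594 reads in the control (95% Wilson interval 50.4 to 58.3), 77.2% of 237 in Tut1 KO (71.5 to 82.1), 83.4% of 350 in the library labelled P53 KO (79.2 to 87.0) and 62.6% of 246 in the library labelled double KO (56.4 to 68.4). The Myc-201 variant made up 37.2% (33.4 to 41.2), 16.0% (11.9 to 21.2), 11.7% (8.75 to 15.5) and 30.1% (24.7 to 36.1). By point values the share of Myc-202 was lowest in the control and highest in the library labelled P53 KO, but the intervals of the control and the library labelled double KO overlapped, as did those of Tut1 KO and the library labelled P53 KO. Usage was tested by a Fisher exact test (two-sided), which compares libraries and not conditions, with FDR over all isoforms tested in the pair and calls at 10 percentage points or more. Between Tut1 KO and the control 2 of the 6 member isoforms tested were called, both of Myc, against 8.58% of 18518 isoforms. Myc-202 was higher by 22.8 points (exact test, FDR 4.32e-08) and the Myc-201 variant lower, at -21.2 points (FDR 6.41e-08). Between the library labelled P53 KO and the control the same 2 isoforms were called (9.03% of isoforms), with 29.1 points (exact test, FDR 2.89e-18) and -25.5 points (FDR 2.88e-16).

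Between the library labelled double KO and the control no member isoform was called (6.44% of isoforms), and Myc-202 differed by 8.22 points (exact test, FDR 0.174). Against the library labelled P53 KO, the library labelled double KO had Myc-202 lower, at -20.8 points (exact test, FDR 5.26e-06), and the Myc-201 variant higher by 18.4 points (FDR 1.28e-05), 2 calls against 1.22% of isoforms. Against Tut1 KO the difference in Myc-202 was -14.6 points (exact test, FDR 0.0932), and no member isoform was called (0.149% of isoforms). Tut1 KO and the library labelled P53 KO differed by -6.21 points (exact test, FDR 0.666), with no member isoform called (0.214%). Annotated length moved in the same direction: the read-weighted mean annotated length of a gene's isoforms was shorter than in the control for 2323, 2215 and 2335 of 3870 genes in the 3 libraries with Cre mRNA, with median log2 ratios of -0.0048, -0.0027 and -0.0043. For Myc these ratios were -0.025, -0.026 and -0.0066. The part of this shift in the Myc shares was not tested.

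**Figure D3:**
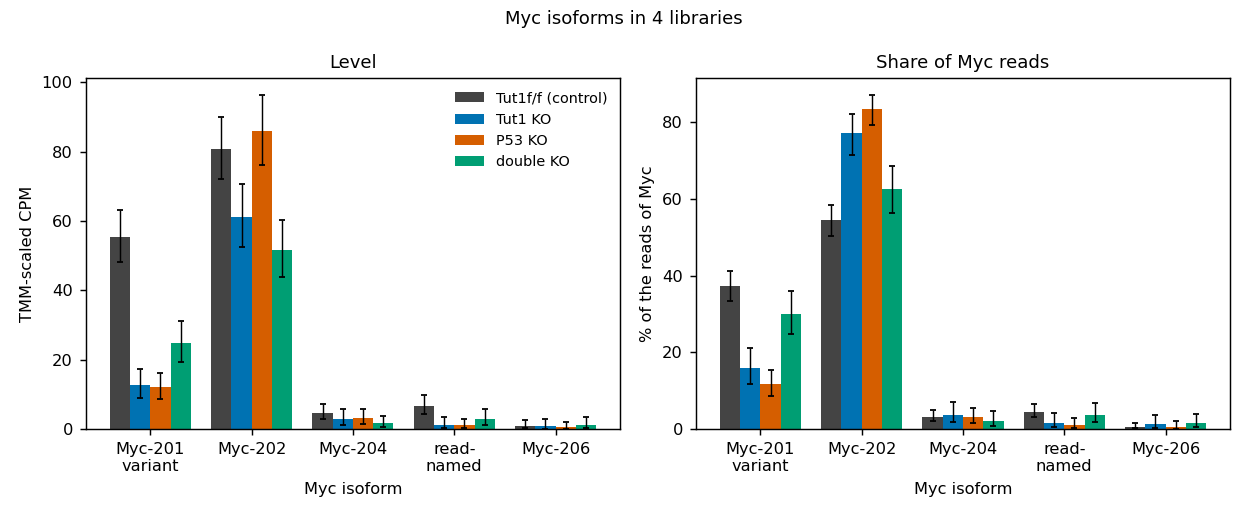
Levels (left, TMM-scaled CPM with exact 95% Poisson intervals) and shares of Myc reads (right, in percent with 95% Wilson intervals) of the 5 Myc isoform entries in the 4 libraries. The Myc-201 variant lies at 55.3 CPM in the control and at 12.1 to 24.8 CPM in the others, while Myc-202 lies between 51.6 and 85.9 CPM.

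At the Jund and Klf4 loci reads were held by entries named only by a position rounded to 1 kb, with no gene, strand or exon. They are set apart from the member counts. Jund encodes the Jun protein that is least dependent on signals, and 1 entry at its locus (chr8, 70698949 to 70700616) had 979, 353, 436 and 177 reads, or 245 CPM (230 to 261), 118 (106 to 131), 128 (116 to 141) and 59.3 (50.9 to 68.7). The control was highest and the library labelled double KO lowest, with no overlap between either and the rest. Log2 ratios to the control were -1.06 (-1.24 to -0.88), -0.93 (-1.10 to -0.77) and -2.05 (-2.29 to -1.81). The position also lies within reach of Gm11175, a gene antisense to Jund with 0 reads of its own, and the table does not tell the strands apart. Klf4, the Krüppel-like factor known for reprogramming to pluripotency, had 3 such entries at its locus (chr4, 55527143 to 55532466) with 12, 32, 23 and 9 reads. These were 3.00 CPM (1.55 to 5.25), 10.7 (7.31 to 15.1), 6.76 (4.29 to 10.1) and 3.01 (1.38 to 5.72), with the control and the library labelled double KO low. Against the control the log2 ratios were 1.83 (0.84 to 2.92), 1.17 (0.11 to 2.31) and 0.01 (-1.42 to 1.38). Position-named entries at the other loci were minor, with 8 to 16 reads per library at Klf6, 5 to 21 at Myc and at most 2 at Junb and Egr1.

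Lists of related genes were read the same way, as counts of different genes among those that passed the filter. Of all genes, 13.1%, 13.2% and 10.1% were higher and 12.8%, 14.3% and 9.94% lower than in the control, in Tut1 KO and the libraries labelled P53 KO and double KO, and list counts below follow that order. Among other immediate early transcription factors, 10 of 19 were tested. Klf10, a Krüppel-like factor induced by TGF-β, had 272, 54, 43 and 99 reads. It was lower in all 3 libraries with Cre mRNA, with log2 ratios of -1.92 (-2.37 to -1.49), -2.43 (-2.93 to -1.96) and -1.04 (-1.38 to -0.70), the last of which was under 2-fold with library totals as the size (-0.89). Atf4, the factor of the integrated stress response, was lower in Tut1 KO (-1.29) and in the library labelled P53 KO (-1.06, and -0.99 with library totals). Klf9 was higher in the library labelled P53 KO (1.08, and 0.94 with all reads) and Atf3 in the library labelled double KO (1.68, from 5 to 12 reads). In the 3 comparisons 0, 1 and 1 were higher and 2, 2 and 1 lower, with median log2 ratios of 0.12, -0.15 and -0.64 beside 0.02, 0.02 and -0.02 for all genes. Egr2 (43, 25, 22 and 17 reads), Egr3 (35, 26, 28 and 16) and Nr4a1 (146, 92, 87 and 66) were not different in any of the 3.

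Among other immediate early genes, 18 of 27 were tested. Of these, 2, 3 and 2 were higher, near the share of all genes (13.1%, 13.2% and 10.1%), and 0, 1 and 0 lower (12.8%, 14.3% and 9.94%). Btg1, an antiproliferative factor, was higher in all 3, with log2 ratios of 2.27, 2.46 and 1.74. Trib1, a pseudokinase, was higher in all 3 as well, at 1.79, 1.77 and 1.80 (10 reads in the control, 26 to 29 in the others). In the library labelled P53 KO, Dusp1 was higher (1.16) and Gadd45g lower (-1.02, and -0.94 with library totals). The medians were 0.25, 0.13 and 0.02.

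Of the growth factor signal and serum response list, 17 of 25 were tested, with 3, 1 and 1 higher (13.1%, 13.2% and 10.1% of all genes). Braf, a kinase between Ras and MAP kinase kinase, was higher in Tut1 KO (1.78) and in the library labelled double KO (2.26). Map2k2 was higher in Tut1 KO (1.28) and the library labelled P53 KO (1.55), and in Tut1 KO Creb1 was higher (1.33) and Mapk3 lower (-1.27). The medians were 0.22, 0.27 and 0.04.

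A list of feedback inhibitors of the signal also held Etv4 and Etv5, ETS activators downstream of FGF signalling. It had 10 tested genes of 15, of which 1, 1 and 0 were higher (13.1%, 13.2% and 10.1% of all genes) and 4, 3 and 2 lower (12.8%, 14.3% and 9.94%). Etv4 and Etv5 were 2 of the lower genes in each library. Etv4 had 72, 8, 13 and 8 reads and log2 ratios of -2.75 (-4.02 to -1.70), -2.24 (-3.21 to -1.37) and -2.75 (-4.02 to -1.69). Etv5 had 176, 49, 42 and 65 reads, with -1.43, -1.83 and -1.02, the last -0.87 with library totals. Dusp6, the phosphatase of ERK, had 410, 123, 100 and 167 reads, and was lower in Tut1 KO (-1.32) and in the library labelled P53 KO (-1.80). Nab2 was lower (-1.28) and Dusp7 higher (1.03) in Tut1 KO, and Nab1 was higher (1.09) in the library labelled P53 KO, none of them under every scaling. Spry4 had 1135, 1066, 1433 and 876 reads and was not different. Dusp4 was lower in the library labelled double KO than in the library labelled P53 KO (-1.76) and than in Tut1 KO (-1.71). The medians were -0.33, -0.18 and -0.79.

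Myc partners held 9 tested genes of 11, with 1, 1 and 2 higher and 0 lower in each. Of all genes, 13.1%, 13.2% and 10.1% were higher and 12.8%, 14.3% and 9.94% lower. Mga, a repressive partner of Max, was higher in all 3 (58 reads in the control and 173, 151 and 147 in the others, log2 ratios 1.99, 1.61 and 1.76), and Mxi1 was higher in the library labelled double KO (1.21). The medians were 0.67, 0.45 and 0.05. All 15 Myc target genes were tested, with 0 higher and 1, 1 and 0 lower. The gene was Cdk4, a kinase of the G1 phase, with 2927, 987, 1011 and 1211 reads (log2 ratios -1.15 and -1.30 where lower). The medians were -0.12, -0.10 and 0.05, while Ncl, Npm1 and Fbl were not different in any of the 3. Of 11 factors of nonsense-mediated decay and AU-rich element decay, 8 were tested, and 3, 3 and 3 were higher and 0 lower. The same shares of all genes apply. The higher ones were Hnrnpd, which binds AU-rich elements (19, 54, 74 and 39 reads), Smg1 (18, 38, 36 and 31) and Smg5 (19, 42, 38 and 58). The medians were 0.50, 0.49 and 0.55.

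Between libraries with Cre mRNA, few list genes were different. In the library labelled double KO against the library labelled P53 KO, Klf10 (1.39) and Braf (1.83) were higher. Tut1 KO had Mxd4 (1.13) and Braf (1.35) higher than the library labelled P53 KO.

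**Figure D4:**
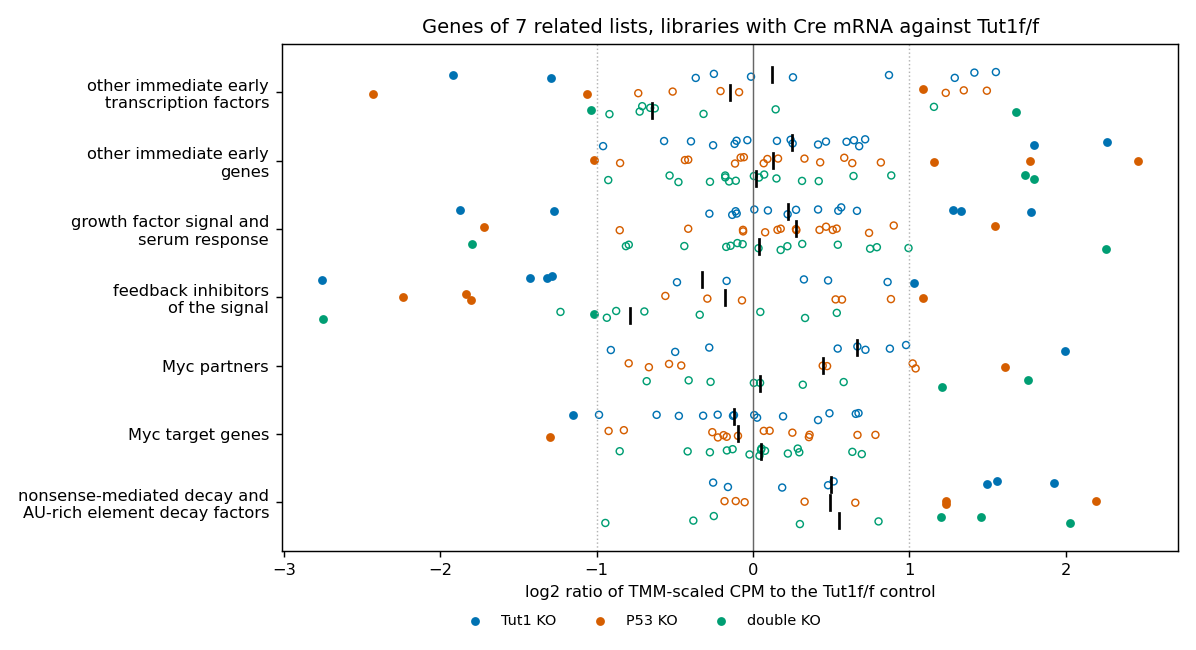
Log2 ratio of CPM to the control for each tested gene of the 7 lists, in the 3 libraries with Cre mRNA. Filled points are at least 2-fold with an interval that excludes no change, black bars are list medians and dotted lines mark 2-fold. Etv4 is the leftmost gene at -2.75, in Tut1 KO and the double KO library, and the 3 decay factors that are higher lie between 1.20 and 2.19.

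For each member the 2 genes with the nearest profile were found among 6695 genes of at least 10 CPM, as the distance between log2(CPM + 0.5) profiles centred over the 4 libraries. With 4 libraries such closeness is a description only. They were Gm9794 and Cdc42ep1 for Jun (distance 0.018 and 0.052), Rgs12 and Csnk2a1 for Egr1 (0.019 and 0.026), and for Klf6 Tcaf1 was among them (0.038). Myc lay nearest to Fra10ac1 and Srsf6 (0.081 and 0.086) and Fos to Abcd3 and Zfand3 (0.072 and 0.078). Ier2 lay nearest to Tango2 and Cotl1 (0.11 and 0.14) and Junb to Slc12a4 and Plod3 (0.17 and 0.20). Among the members themselves, Egr1 and Klf6 were the closest pair (0.14), followed by Junb and Ier2 (0.29), and Junb and Egr1 the most distant (1.40).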

How the data were processed

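Total RNA was sequenced as PCR-amplified cDNA on Nanopore, 1 library per group. The authors deposited 1 table of isoform read counts, not normalized, with 1 column per library. Per the labels the build is mm10. The study's methods name minimap2 and FLAIR for its Nanopore libraries of embryonic pallium. Whether they also made this table is not given in the sources used here. Counts were summed per Ensembl gene, with symbols and positions from GENCODE M21 (GRCm38, 14936 of 14949 genes matched). Entries that name no gene (17.2% to 30.2% of reads) stayed out of library sizes.

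R 4.3.3, edgeR 4.0.16 (TMM, default filter, quasi-likelihood test), DESeq2 1.42.0, Python 3.11.15, numpy 2.4.6, scipy 1.17.1, pandas 2.3.3 and matplotlib 3.10.9 were used. CPM is reads per 1000000 TMM-scaled reads of the 9882 genes that passed the filter. Ratios have exact conditional 95% intervals. Usage was tested for isoforms with at least 10 reads over both libraries, in genes with at least 20 in each. The length behind CPM per kb is the read-weighted annotated transcript length. Genes named are the members, list genes counted as different, the 2 nearest genes per member and member isoforms with at least 10 reads in all. Egr2, Egr3, Nr4a1, Spry4, Ncl, Npm1, Fbl, Klf6-203, Junos, Prdx2, Gm11175, single marker genes and list genes called under another scaling alone were added after their values were seen. Some genes that these rules name are not reported here. The members and lists were chosen with earlier results of these data known. All fits and rules were tested on simulated data. Alternatives were other scalings, filters, thresholds and tools, and leaving out each Cre library.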

Additional observations from a re-analysis of the deposited data

Results flagged for a closer look

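Reads at the Klf4 locus lay outside the counts of named genes, in entries named only by a position, and stood above the control in 2 libraries. The log2 ratio of CPM to the control was 1.83 (95% interval 0.84 to 2.92) in Tut1 KO, from 32 against 12 reads, and 1.17 (0.11 to 2.31) in the library labelled P53 KO, from 23 against 12 reads. In the library labelled double KO it was 0.01, from 9 reads.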

How the results depend on the processing

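No paired analysis was possible because each group is 1 library. Of the members' log2 ratios recomputed under other scalings or isoform sets, 199 stayed within their 95% interval, 5 did not and 0 of those counted as different changed sign. Of the 5, 4 are Myc with plain Ensembl transcripts only, which leaves out the Myc-201 variant (-0.41 in Tut1 KO and 0.05 in the library labelled P53 KO against the control, and for the library labelled double KO -0.72 against the library labelled P53 KO and -0.25 against Tut1 KO), and 1 is Jun in the library labelled P53 KO against the control (-0.12 with all reads of the library as the size). Plain transcripts alone give no Egr1 value.

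With a 1.5-fold threshold, members lower against the control were 3 in Tut1 KO (21.3% of all genes), 3 in the library labelled P53 KO (22.3%) and 4 in the library labelled double KO (18.5%). The library labelled double KO then had 3 lower against the library labelled P53 KO (8.9% of all genes) and 1 against Tut1 KO (6.001%). With a 3-fold threshold they were 0 (5.28%), 1 (6.61%) and 1 (3.59%) against the control, and 0 (0.708%) between the libraries labelled double KO and P53 KO. Counting the position-named entries at Jund and Klf4 as 2 further members, chosen after seeing the data, gave 1 member higher in Tut1 KO (13.1%) and 1 in the library labelled P53 KO (13.2%) against the control. Members lower were then 3 in Tut1 KO (12.8%), 1 in the library labelled P53 KO (14.3%) and 3 in the library labelled double KO (9.94%). The library labelled double KO had 3 lower against the library labelled P53 KO (3.03%) and 1 against Tut1 KO (2.53%).

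For Cre status, DESeq2 called 1 member and 980 genes against 2 and 1676 in edgeR. Leaving out 1 Cre library at a time gave 0 to 1 members and 0 to 2393 genes, 0 genes without the library labelled P53 KO. With no expression filter, Trp53 status called 2 genes. For usage, 20 percentage points left 1 member isoform between the libraries labelled double KO and P53 KO, and plain transcripts alone left 0 in that pair and 0 and 0 for Tut1 KO and the library labelled P53 KO against the control. On Myc-201 variant and Myc-202 reads alone, added after seeing the data, the difference in Myc-202 between the library labelled double KO and Tut1 KO was -15.3 points. Scaling by library total left 2 list genes lower in the library labelled double KO against the control, where TMM gave 4, the lost ones being Klf10 and Etv5. It also ended the lower calls of Atf4 and Gadd45g in the library labelled P53 KO and of Nab2 in Tut1 KO, and added higher calls of Atf3 and Mxd1 in Tut1 KO and of Mcl1 and Map2k2 in the library labelled double KO. With all reads of the library as the size, members lower in Tut1 KO were 3 (16.0% of all genes), Myc being the added one, and the higher calls of Dusp7 in Tut1 KO and of Klf9 and Nab1 in the library labelled P53 KO ended. Lower calls of Id3, Mxd3 and Ldha in Tut1 KO and of Nop58 in the library labelled P53 KO were added, which makes the Myc target genes lower 2 and 2. Both scalings added Dusp6 as higher in the library labelled double KO against the library labelled P53 KO.

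The median log2 ratio of all genes to the control was 0.12, 0.10 and 0.12 with library totals, and -0.13, -0.12 and -0.06 with all reads as the size. The share of different genes that were higher moved from 50.6% to 39.8% (Tut1 KO) and from 48.1% to 37.6% (the library labelled P53 KO) with all reads, and from 50.4% to 63.0% (the library labelled double KO) with library totals. For the library labelled double KO against the library labelled P53 KO it moved from 57.5% to 68.6% with library totals and 72.5% with all reads, and against Tut1 KO from 45.0% to 64.0% with all reads. Other causes were not tested.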
